A study of Mus musculus with 12 samples.

Results

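The mitochondrial ribosomal protein genes were followed in mouse liver. Members were the rows of the gene table whose symbol is Mrpl or Mrps, a number and at most 1 further letter, which gave 77 of 41128 rows, 48 named for the large subunit (Mrpl) and 29 for the small subunit (Mrps). 76 of them had a mean value of at least 10 normalized reads over the 12 libraries and were tested, 47 large and 29 small. The remaining member, Mrpl53, was listed at 0 in all 12 libraries. No result rests on it, and 88.0% of its exon bases overlap other annotated genes.

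The mitochondrial ribosome translates the few messages of the mitochondrial genome, all of which encode core subunits of the respiratory chain and of ATP synthase. Its ribosomal RNAs are made inside the organelle, while all of its proteins are encoded in the nucleus, translated in the cytosol and imported, so its assembly needs the products of both genomes. Some of these proteins descend from bacterial ribosomal proteins and others exist only in mitochondria. In the liver, mitochondria carry out fatty acid oxidation, ketone body synthesis and part of the urea cycle.

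Livers were taken from C57BL/6 mice at 6 weeks of age. All mice were born germ-free and stayed in sterile isolators until weaning at day 21. The germ-free (GF) mice remained there, and their conventionalized (CV) littermates were housed for the following 3 weeks on soiled bedding from the same animal facility, so that the contrast is 3 weeks of exposure to microbes and of housing outside the isolator. 4 groups of 3 mice each were compared by their labels, GF males, CV males, GF females and CV females, with 1 messenger RNA library per mouse. The labels do not say which mice were littermates of each other. Values are normalized read counts, that is, whole reads divided by the size factor of the library, and changes are CV minus GF on the log2(value + 1) scale with their standard error, tested with limma and called at a Benjamini-Hochberg adjusted p under 0.05 over 11782 genes.

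Libraries held 5993619 to 15290835 reads, and each of the 66 pairs differed by more than counting noise. The mitochondrial ribosomal RNAs mt-Rnr1 and mt-Rnr2 took 9.36 to 16.4% of the reads in GF libraries and 1.39 to 6.32% in CV libraries. Together with 7 other abundant loci, they took 42.1 to 69.8% in GF libraries and 5.43 to 22.04% in CV libraries. These others were Lars2, with a mean of 22.7% in GF libraries, Mir6236 and predicted genes (Gm). The predicted genes were chosen by a mean GF share of at least 0.1% that was at least 3 times the CV share. Part of the gap thus follows from the choice, and a scaling without these loci is not independent of the condition. Reads outside these loci numbered 1811042 to 5262722 in GF and 6931429 to 14403918 in CV libraries, without overlap. Reads of the members numbered 4047 to 14627 in GF and 27767 to 47043 in CV libraries. Depth outside these loci thus cannot be told apart from the condition. The library labelled CV male 3 had no reads from 4 Y-linked genes and an Xist value of 2382. The other 5 male libraries had Xist values of at most 21.3. Their Y-linked sums were 1090 to 1170 in GF males and 684 and 689 in CV males 1 and 2. CV females had Xist values of 1045 to 1090 and Y-linked sums of at most 0.60. In GF females these were 7607 to 11928 and at most 1.92, so Xist stood apart between GF and CV females. The cause of this gap and its bearing on the members were not tested. The sex-linked reads of the library labelled CV male 3 are thus those of a female, and the group labelled CV males is not all male. The main counts and medians over the members that rest on its label are given with and without it. So are the changes of single genes singled out for a sex. Counts of members that rose in both sexes or passed an unadjusted p are given with it only. The same holds for results by sex under other scalings, models and tools. Hepatocyte markers summed to between 102113 and 466197 normalized reads per GF library and between 385751 and 641856 per CV library, with 6 of 8 markers higher in CV livers. Of 8 lymphocyte markers 4 were tested and all 4 were lower in CV livers, with summed levels of 108 to 184 in GF and 30.9 to 43.7 in CV libraries, and of 5 adipose markers 1 was tested and was lower, with sums of 47.9 to 465 in GF and 7.15 to 55.7 in CV libraries. Of 7 tested markers of Kupffer cells and macrophages 3 were higher in CV livers, with sums of 918 to 1817 in GF and 1055 to 2331 in CV libraries. None of 5 bile duct markers passed, pancreas markers summed to at most 16.1, muscle markers to at most 21.8 and neutrophil markers to at most 23.9 in any library. The part of these cells in the results was not tested. In bulk tissue, a smaller share of cells of a type and less RNA per cell cannot be told apart.

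The promoters of 4 members are shown because the results turn on these genes. Mrpl28 had the smallest p-value of the large subunit, Mrps18a had the smallest of the small subunit, Mrpl12 belongs to the stalk of the large subunit, and Mrpl18 was the one member that fell. Each stretch runs from 120 bases before to 30 bases from the RefSeq start site onward, on build GRCm38.p6 and 5′ to 3′ on the strand of the gene. Capitals mark the letters GCGCANGCG (NRF1), CCGGAAG (ETS factors such as GABP) and AAGATGGC (YY1), searched on both strands. The Mrpl28 stretch lies at chr17:26123383-26123532 on the plus strand, the Mrpl12 stretch at chr11:120484517-120484666 on the plus strand, the Mrps18a stretch at chr17:46110884-46111033 on the plus strand, and the Mrpl18 stretch at chr17:12916062-12916211 on the minus strand.
Mrpl28: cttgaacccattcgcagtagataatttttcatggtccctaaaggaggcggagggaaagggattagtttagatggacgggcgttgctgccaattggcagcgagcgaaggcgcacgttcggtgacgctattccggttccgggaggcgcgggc
Mrpl12: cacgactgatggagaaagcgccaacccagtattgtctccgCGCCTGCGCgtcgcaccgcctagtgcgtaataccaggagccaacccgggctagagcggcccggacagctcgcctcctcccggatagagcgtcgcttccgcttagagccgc
Mrps18a: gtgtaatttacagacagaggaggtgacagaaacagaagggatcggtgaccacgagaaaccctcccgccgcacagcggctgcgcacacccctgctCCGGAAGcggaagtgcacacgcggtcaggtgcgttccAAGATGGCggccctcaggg
Mrpl18: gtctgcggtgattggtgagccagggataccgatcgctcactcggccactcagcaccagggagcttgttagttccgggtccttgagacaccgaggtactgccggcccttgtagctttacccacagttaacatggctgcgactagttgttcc
The Mrpl12 promoter held an NRF1 match 80 bases before the start site. The Mrps18a promoter held an ETS match 26 bases before and a YY1 match 11 bases after it. An ETS match of the Mrpl18 promoter, 240 bases before the start, lies outside the stretch shown, and the Mrpl28 promoter held none of the 3 motifs. The RefSeq start used for Mrpl18 lies 254 bases inside the gene as annotated in GENCODE. The Mrpl18 stretch and its ETS match therefore lie within that annotated gene.

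RefSeq windows of 300 bases were found for 68 members, in 74 windows. An ETS match was present in 25 of these (33.8%), against 8.86% of all 32851 windows and 17.6% of the windows of genes tested here. The YY1 letters were found in 12 member windows (16.2%), against 2.75% of all windows and 4.49% of those of genes tested. NRF1 letters were found in 16 member windows (21.6%), against 6.25% of all windows and 13.1% of those of genes tested. A match is a description of these letters in this window. Of the tested members with a YY1 match in their nearest window, 12 of 12 rose with conventionalization, with a median log2 change of 1.33, and of those without one 48 of 55, with a median of 1.01. With an NRF1 match 13 of 16 rose, with a median of 0.99, and without one 47 of 51, with a median of 1.12. With an ETS match 16 of 22 rose and 1 fell, with a median of 1.15, and without one 44 of 45 rose, with a median of 1.11. In 3 of the members with a YY1 match, Mrpl36, Mrpl35 and Mrps24, the window lies 2496, 3185 and 7979 bases from the gene start in GENCODE. Without them, 9 of 9 rose, with a median of 1.33.

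Most members were higher in CV than in GF livers. Over both sexes, 68 of 76 rose, 1 fell and 7 did not pass the test, while 32.3% of all 11782 genes tested rose and 28.7% fell. The median log2 change of the members was 1.11, a fold of 2.16, against a median of 0.07 over all genes. Of the 76 members, 75 had a positive change, and those that rose spanned 0.46 for Mrpl47 to 2.01 for Mrpl28. The 6 CV libraries all lay above the 6 GF libraries for 36 members (47.4%), against 15.6% of all genes, a count that does not use the labelled sex. Without CV male 3, 67 rose and 1 fell, against 32.0 and 28.3% of all genes. Reads of the members made up 0.067 to 0.187% of all reads in GF libraries and 0.286 to 0.334% in CV libraries.

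**Figure D1:**
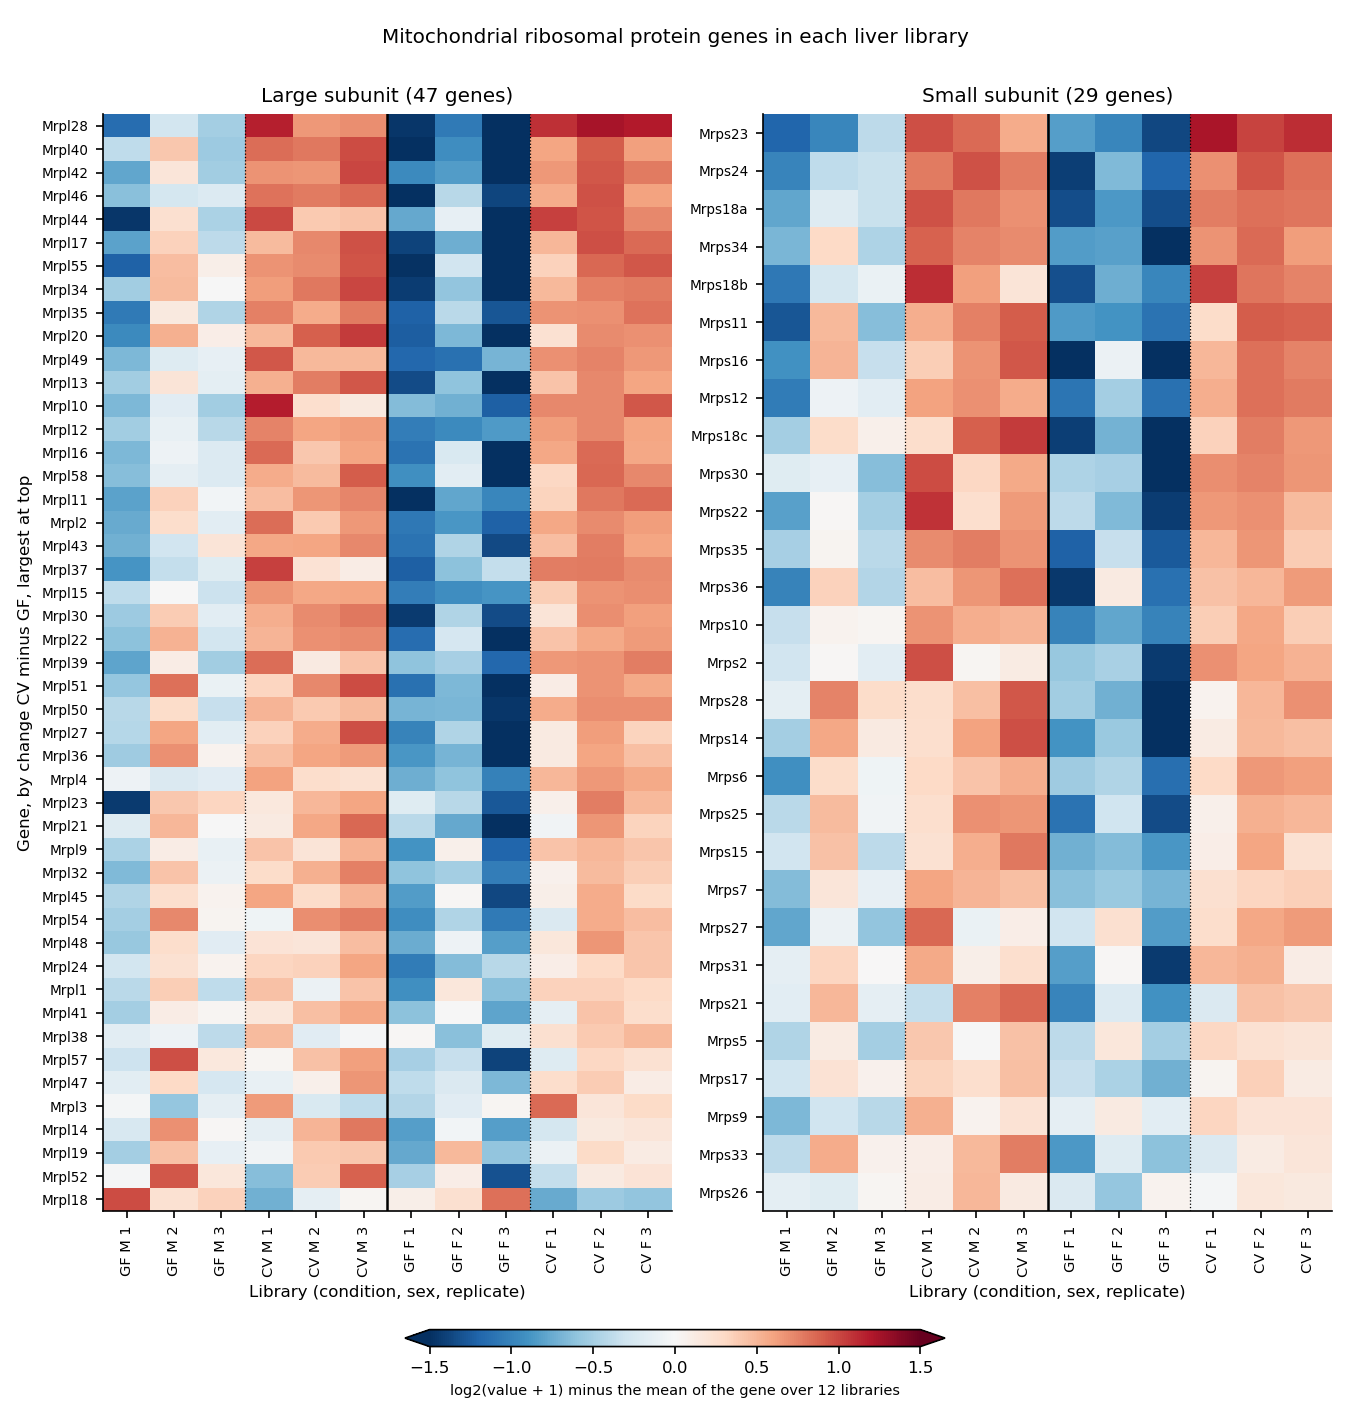
Heat map of the 47 large and 29 small subunit genes tested (rows, ordered by their change) in the 12 libraries (columns, by sex, condition and replicate). Color shows log2(value + 1) minus the mean of the gene over all libraries, limited to 1.5 in both directions. CV columns are mostly red and GF columns mostly blue, with Mrpl18 at the foot of the large subunit the other way round.

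The scale of this change depended on how the libraries were scaled to each other. Scaled to all reads, the median of all genes moved to 0.63 and that of the members to 1.67, with 75 members higher and none lower. Scaled to the reads outside the 9 abundant loci, the median of all genes moved to -0.41 and that of the members to 0.65, with 45 members higher and 1 lower. The share of all genes that rose or fell moved from 32.3 and 28.7% to 50.6 and 13.3% under the former scaling and to 17.5 and 42.1% under the latter. The distance between the members' median and the median of all genes was 1.04 with the deposited scaling, 1.04 with TMM factors, 1.04 with all reads and 1.05 with reads outside these loci. A scaling divides all values of a library by 1 number and moves all genes nearly alike. This distance could therefore hardly change and is no test of the result.

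Among the large subunit genes, 41 of 47 rose, 1 fell and 5 did not pass, with a median log2 change of 1.16. Mrpl28, a counterpart of bacterial L28, had the largest change of all members. It was measured at 118, 216 and 184 normalized reads in GF males, 590, 413 and 424 in CV males, 95.1, 125 and 86.3 in GF females and 563, 617 and 601 in CV females. The lowest CV library was above the highest GF library in both sexes. The change was 2.01 ± 0.18 over both sexes (limma adjusted p = 7.66e-07), a fold of 4.04.

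Mrpl12 is the mitochondrial form of L7/L12, the mobile stalk protein that recruits translation factors. It stood at 183, 245 and 197 normalized reads in GF males and 441, 398 and 406 in CV males. In females it stood at 128, 136 and 146 in GF libraries and 407, 435 and 396 in CV libraries. The CV libraries of both sexes were close to each other and above every GF library, with a change of 1.30 ± 0.15 (limma adjusted p = 3.35e-06). Mrpl10, the stalk base to which Mrpl12 binds, rose by 1.31 ± 0.20, and Mrpl11, the third protein of that region, rose by 1.28 ± 0.21.

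The other large subunit genes with the smallest p-values were Mrpl15, a counterpart of bacterial L15, and Mrpl40, which has no bacterial counterpart. Mrpl15 was at 191, 249 and 198 normalized reads in GF males, 395, 372 and 377 in CV males, 121, 130 and 134 in GF females and 322, 397 and 403 in CV females. Mrpl40 was at 94.0, 162 and 83.6 in GF males, 219, 213 and 243 in CV males, 39.2, 63.8 and 38.3 in GF females and 185, 230.4 and 188 in CV females. Neither gene had a CV library at or below a GF library, and their changes were 1.19 ± 0.15 and 1.57 ± 0.20. Mrpl55, another protein of the large subunit, had more spread, from 57.5 to 327 in GF and from 304 to 458 in CV libraries, and GF male 2 lay above the lowest CV female. Its change was 1.49 ± 0.29. Mrpl58 (Ict1), a peptidyl-tRNA hydrolase built into the large subunit, rose by 1.28 ± 0.23.

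Mrpl18 moved the other way. Its protein is related to bacterial L18, which holds 5S rRNA, an RNA that the mammalian mitochondrial ribosome lacks. Mrpl18 was at 872, 518 and 564 normalized reads in GF males and 268, 402 and 452 in CV males. In females, it was at 471, 524 and 784 in GF libraries and 262, 303 and 293 in CV libraries. All CV libraries lay below all GF libraries, although CV male 3 was only slightly below GF female 1. The change was -0.90 ± 0.20 (limma adjusted p = 8.23e-04), with -0.79 ± 0.28 in males (-0.95 ± 0.31 without CV male 3) and -1.02 ± 0.28 in females. Scaled to all reads it was -0.35 and did not pass the test (limma adjusted p = 0.173). Exons of Tcp1, a cytosolic chaperonin gene on the opposite strand, overlap 10.1% of its exon bases. Whether strand was used in counting is not given in the sources used here. Tcp1 itself was at -0.34 ± 0.16 and did not pass (limma adjusted p = 0.0725).

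**Figure D2:**
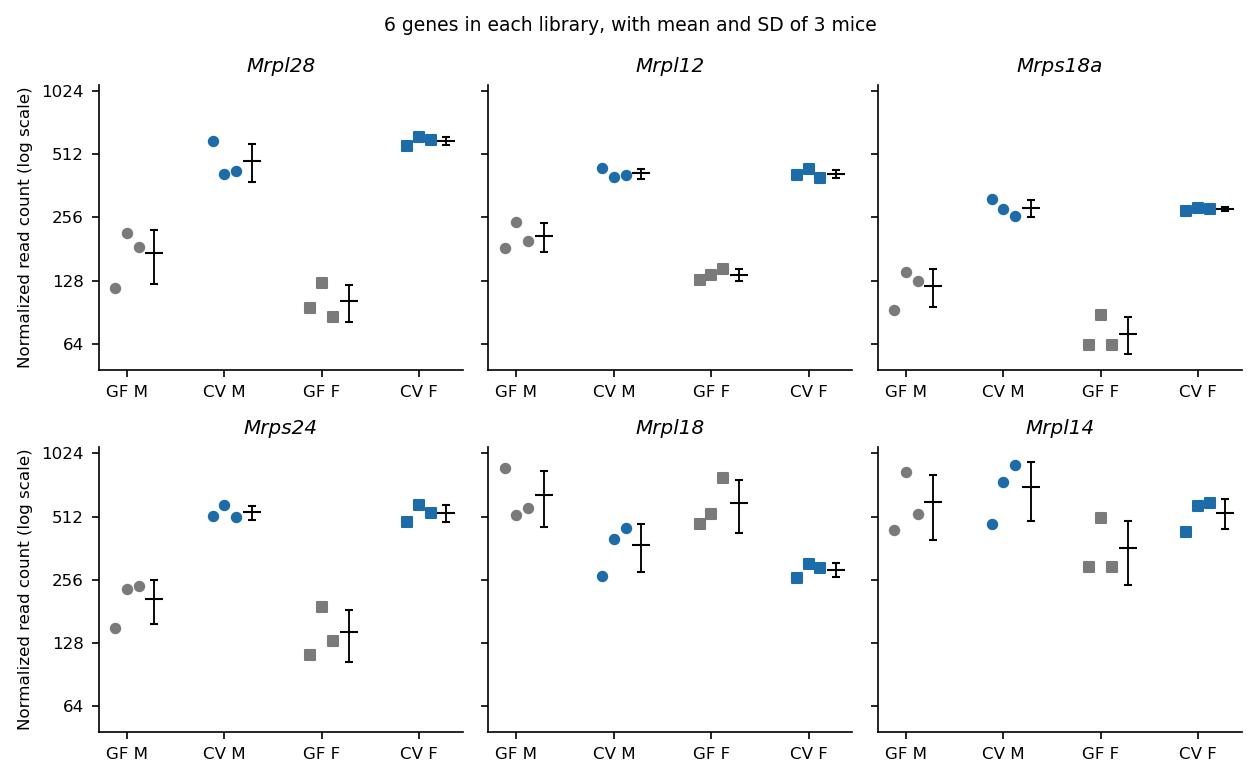
Normalized read counts (log scale) of 6 genes in the 12 libraries, grouped as GF males, CV males, GF females and CV females; circles are males, squares females, and the bar beside each group is the mean with the SD of 3 mice. Mrpl28, Mrpl12, Mrps18a and Mrps24 are higher in CV groups, Mrpl18 is lower, and the groups of Mrpl14 overlap.

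The 2 large subunit genes with the highest level per kb of transcript were among those that did not pass. Mrpl14, the counterpart of L14 at the subunit interface, averaged 855 normalized reads per kb. It was at 441, 836 and 529 normalized reads in GF males, 473, 744 and 905 in CV males, 293, 505 and 293 in GF females and 434, 577 and 591 in CV females, so GF and CV overlapped in both sexes. Its change was 0.41 ± 0.22 (limma adjusted p = 0.113). Mrpl52, found only in mitochondria, averaged 829 per kb, ranged from 128 to 611 in GF and from 204 to 590 in CV libraries, and had a change of 0.20 ± 0.28 (limma adjusted p = 0.545). At the other end, Mrpl19 averaged 15.7 per kb, ranged from 43.8 to 106 in GF and from 71.1 to 99.9 in CV libraries, and had a change of 0.35 ± 0.24. Exons of Gcfc2 on the opposite strand overlap 36.0% of its exon bases. The remaining large subunit genes that did not pass, Mrpl3 and Mrpl57, had changes of 0.44 ± 0.21 and 0.47 ± 0.23. Over all members tested, the level per kb spanned 10.9 to 855, with a median of 146 in the large and 88.2 in the small subunit.

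Among the small subunit genes, 27 of 29 rose, none fell, and Mrps33 and Mrps26 did not pass, with changes of 0.48 ± 0.21 and 0.34 ± 0.16. The median log2 change was 0.97. Mrps24, a counterpart of bacterial S3 at the messenger RNA entrance, was at 150, 230.2 and 238 normalized reads in GF males, 515, 583 and 509 in CV males, 112, 189 and 130.3 in GF females and 482, 578 and 530.4 in CV females. Every CV library lay above every GF library, and the change was 1.65 ± 0.18 (limma adjusted p = 2.27e-06). Mrps12, the counterpart of S12 in the decoding center, was at 103 to 202 in GF males, 314 to 345 in CV males, 97.8 to 149 in GF females and 310.4 to 379.5 in CV females. Its groups did not overlap, and its change was 1.33 ± 0.19.

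Mrps18a, Mrps18b and Mrps18c are 3 relatives of bacterial S18, each the product of a separate gene. Mrps18a, whose protein sits in the large subunit despite its name, was at 93.1, 141 and 128 normalized reads in GF males, 312, 280 and 259 in CV males, 63.4, 87.8 and 63.3 in GF females and 275, 285 and 282 in CV females. Its CV values lay above all GF values, with a change of 1.61 ± 0.17 (limma adjusted p = 1.60e-06). Mrps18b ranged from 31.7 to 75.1 in GF and from 91.8 to 174 in CV libraries, and Mrps18c from 67.1 to 264 in GF and from 261 to 452 in CV libraries. For Mrps18c, the lowest CV male was just under the highest GF male. The changes were 1.49 ± 0.22 and 1.32 ± 0.21, so all 3 rose. Exons of the predicted gene Gm16279 on the opposite strand overlap 30.5% of the exon bases of Mrps18b. Mrps30, a mitochondria-specific protein that also sits in the large subunit, ranged from 17.3 to 69.2 in GF and from 93.8 to 150 in CV libraries, without overlap, and rose by 1.32 ± 0.26.

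The lowest level in the small subunit was that of Mrps23, with 4.48, 5.32 and 8.50 normalized reads in GF males, 23.4, 21.5 and 17.3 in CV males, 6.04, 5.32 and 3.83 in GF females and 28.2, 24.2 and 25.9 in CV females. These rest on 2 to 67 reads per library. The CV values nonetheless lay above all GF values, with a change of 1.91 ± 0.31, the second largest of the members. Mrps25, next lowest per kb, rose by 0.90 ± 0.22 over both sexes, although 69.8% of its exon bases overlap Nr2c2 on the opposite strand. Mrps28 and Mrps21 had the highest levels per kb in the small subunit, 414 and 407. Mrps28 dropped to 47.9 in GF female 3 and was otherwise between 170.2 and 472 in GF and between 291 and 539 in CV libraries, with a change of 0.96 ± 0.29. Mrps21 ranged from 92.1 to 261 in GF and from 143 to 335 in CV libraries and overlapped in both sexes. Its change of 0.63 ± 0.24 was close to the threshold (limma adjusted p = 0.0313), and leaving out any of 8 libraries raised the adjusted p above 0.05, to at most 0.0792.

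Mrps36 (Kgd4) is named as a ribosomal protein but is a component of the 2-oxoglutarate dehydrogenase complex of the citric acid cycle. It ranged from 13.6 to 49.2 normalized reads in GF and from 52.6 to 69.0 in CV libraries without overlap, and rose by 1.17 ± 0.28. 3 pseudogenes carry its name in the annotation, and reads shared with them would be uncertain. Mrps11 and Mrpl46 form a head-to-head pair on chromosome 7 whose exons overlap on opposite strands. They rose by 1.43 ± 0.25 and 1.52 ± 0.20. Among the 47 members whose exons overlap no other annotated gene, all of them tested, 43 rose, none fell, and the median change was 1.16.

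The change was then taken within each sex. In males, 30 of 76 members rose and 1 fell, against 14.1% and 15.4% of all genes, with a median log2 change of 0.74, a fold of 1.68. In females, 67 rose and 1 fell, against 29.8% and 26.0% of all genes, with a median of 1.44, a fold of 2.72. 29 members rose in both, a count for which the share of all genes is not given here. The 3 CV males lay above the 3 GF males for 46 members, against 22.0% of all genes, and the 3 CV females lay above the 3 GF females for 68, against 34.0% of all genes. Mrpl18 was the one member whose CV libraries all lay below, in both sexes, as did 21.1% of all genes in males and 31.0% in females. The count in males rests on single libraries. Rising and falling members together were 31 with all libraries. Without GF male 1, 6 members rose and none fell, against 6.18 and 7.41% of all genes, so the members were near that share. Without GF male 3, 15 rose and none fell, against 8.36 and 9.71%. Without CV male 1, 18 rose and none fell, against 8.14 and 10.3%. Without GF male 2, 49 rose or fell, 48 of them rising, against 15.1% of all genes rising and 16.1% falling. Without CV male 3, 20 rose and 1 fell, against 12.1 and 13.2% of all genes, and the median was 0.72. Both remaining CV males lay above the 3 GF males for 46 members, against 26.3% of all genes. The values also moved with the scaling. Scaled to the reads outside the abundant loci, 12 members rose in males and 45 in females, with medians of 0.44 and 0.82. Of all genes, 7.09 and 15.24% then rose and 19.23 and 40.27% fell, with medians of -0.25 and -0.57. Scaled to all reads, 56 and 75 members rose, with medians of 1.05 and 2.25. Of all genes, 24.03 and 49.79% then rose and 6.57 and 9.23% fell, with medians of 0.38 and 0.88. The medians of all genes thus moved as well.

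Changes in females exceeded those in males for 72 of 76 members, and the median difference, male minus female change, was -0.67, against -0.06 over all genes. Without CV male 3 the count was again 72, and the medians were -0.67 and -0.04. Scaled to the reads outside the abundant loci, changes in females were the larger for 67 members, with medians of -0.35 over the members and 0.27 over all genes, and scaled to all reads for 76, with medians of -1.17 and -0.55. No member passed the test of this difference with limma, edgeR or DESeq2, and limma called 0.0% of all genes. At an unadjusted limma p under 0.05 there were 16 members, against 11.7% of all genes. Mrpl28 had the smallest p of these, with 1.48 ± 0.26 in males (1.55 ± 0.30 without CV male 3) and 2.54 ± 0.26 in females. Its difference was -1.06 ± 0.37 (limma adjusted p = 0.417), or -0.99 ± 0.40 without CV male 3. Mrpl4, a counterpart of bacterial L4 in the wall of the exit tunnel, was next. It was at 251, 228 and 235 normalized reads in GF males, 403, 316 and 309 in CV males, 158, 173 and 130.3 in GF females and 372, 415 and 392 in CV females. Its difference was -0.84 ± 0.30 (limma adjusted p = 0.417), or -0.77 ± 0.34 without CV male 3. The widest difference was that of Mrps28, -1.41 ± 0.59, or -1.60 ± 0.61 without CV male 3, in which GF female 3 stood far below the other libraries.

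**Figure D3:**
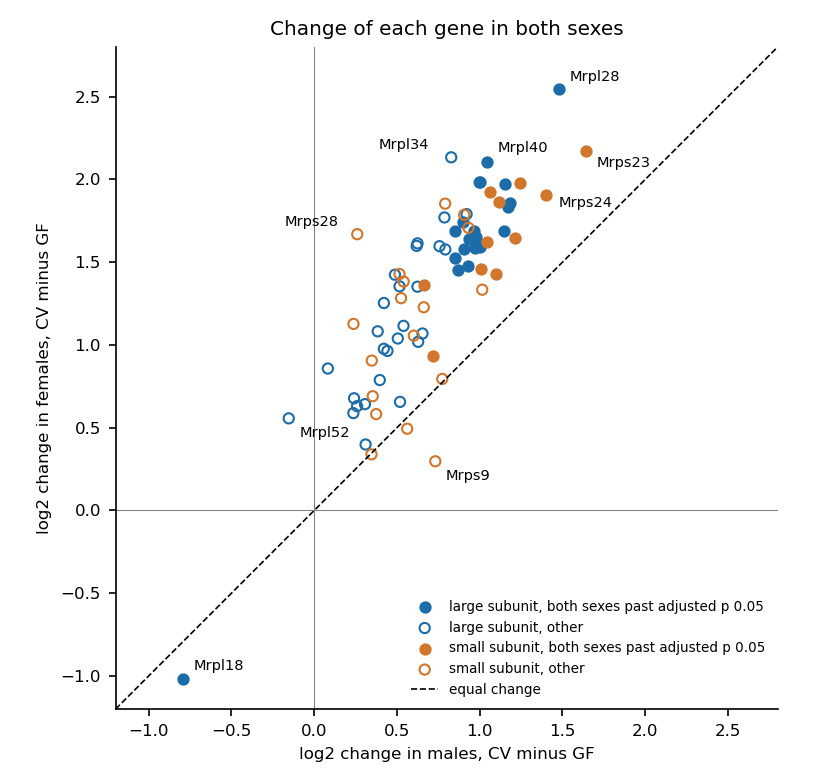
log2 change from GF to CV in males (x axis) and in females (y axis) for 76 genes, blue for the large and orange for the small subunit; filled points passed the adjusted p of 0.05 in both sexes. 72 points lie above the dashed line of equal change, and Mrpl18 alone lies below 0 on both axes.

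Levels in GF livers also stood apart between the labelled sexes. The mean of GF males exceeded that of GF females for 72 of 76 members, with a median ratio of 1.59, whereas CV males exceeded CV females for 47, with a median ratio of 1.03. Without CV male 3 the latter were 41 members and a ratio of 1.02. Scaled to the reads outside the abundant loci, the GF count was 65 with a ratio of 1.25 and the CV count 49 with a ratio of 1.03, and scaled to all reads they were 75 with 2.01 and 26 with 0.92. The mitochondrial ribosomal RNA share was 9.36 to 11.5% in GF males and 13.4 to 16.4% in GF females, without overlap. Its part in the difference between the sexes was not tested. Over both conditions, no member passed the limma test between males and females, with 1.16% of all genes called, and 29 members had an unadjusted p under 0.05, against 11.0% of all genes. edgeR called none, DESeq2 called 1, and limma with the replicate number as a block called 6, all higher in males. The shares of all genes called in these fits are not given here. Without CV male 3, limma called none. The smallest p-values were those of Mrpl40, 0.69 ± 0.20 higher in males (limma adjusted p = 0.140), and of Mrps10, a counterpart of S10, 0.49 ± 0.15 higher (limma adjusted p = 0.188). Without CV male 3, these were 0.67 ± 0.22 and 0.50 ± 0.17. Mrps10 was at 172, 228 and 224 normalized reads in GF males, 109, 128 and 109 in GF females, 351, 319 and 312 in CV males and 283, 328 and 282 in CV females, so that the sexes were apart in GF and overlapped in CV livers.

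Within the GF groups and the CV females, most members had the same highest and lowest mouse. GF male 1 was the lowest of the GF males for 66 of 76 members and GF male 2 the highest for 65, as they were for 37.4 and 38.2% of all genes. GF female 2 was the highest of its group for 58 and GF female 3 the lowest for 55, against 41.6 and 38.3% of all genes. Among CV females, replicate 1 was the lowest for 55 and replicate 2 the highest for 50, against 36.0 and 31.7%. Among CV males, replicate 3 was the highest for 43, against 30.5%, and replicate 1 for 28, against 43.5%. The lowest CV male was replicate 1 for 36, replicate 2 for 26 and replicate 3 for 14, against 39.8, 29.6 and 30.6%.

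Large and small subunits were compared within libraries. The median log2(value + 1) of the large subunit genes exceeded that of the small subunit genes in all 12 libraries, by 0.32 to 0.57 in GF and by 0.43 to 0.66 in CV libraries. Summed over the members, the large subunit genes held 67.2 to 70.3% of the normalized reads, and GF and CV libraries overlapped in this share. The medians of the changes, 1.16 and 0.97, differed by 0.19, against an SD of 0.09 between libraries of a group in the large-minus-small level. With Mrps30 and Mrps18a counted with the large subunit, where their proteins sit, this difference was within that SD of its former value. It was not kept under all settings. Removing the dependence on length and GC content in each library gave -0.07, leaving out CV male 1 gave 0.06, and edgeR and DESeq2 gave 0.11.

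**Figure D4:**
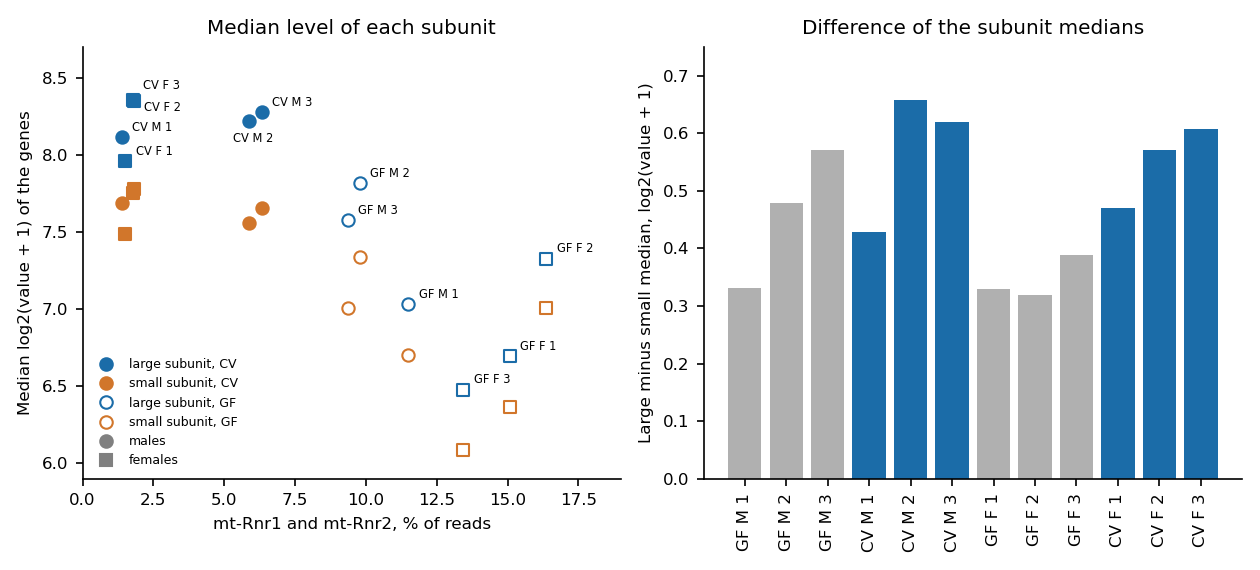
Left, median log2(value + 1) of the large (blue) and small (orange) subunit genes in each library against the share of reads from mt-Rnr1 and mt-Rnr2 in percent; filled points are CV, open points GF, circles males and squares females. Right, the difference of the large and small medians in each library, which is above 0 in all 12 (gray GF, blue CV).

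The reads of the mitochondrial ribosomal RNAs moved opposite to those of most messages for the proteins they assemble with. Protein was not measured. mt-Rnr1, the RNA of the small subunit, was at 156994 to 496188 normalized reads in GF and 15209 to 91480 in CV libraries, and its change was -3.02 ± 0.44 (limma adjusted p = 2.88e-05). mt-Rnr2, the RNA of the large subunit, was at 639435 to 2112369 in GF and 82079 to 418759 in CV libraries, and its change was -2.82 ± 0.58 (limma adjusted p = 5.52e-04). These libraries were made from poly(A) RNA, so the level of ribosomal RNA in them need not be that in the liver. With the share of these RNAs as a covariate, the median change of the members was 1.32 with 72 of 76 positive, no member passed the test by limma, and none of the 11782 genes did. The standard errors were then 2.85 to 3.76 times as wide, and the share itself did not overlap between GF and CV libraries. With the share on a log2 scale the median was 1.19, and Mrps18c alone among the members passed, with 139 of all genes.

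Members with a bacterial counterpart and those classed as mitochondria-specific were counted separately. Of 43 tested members with a bacterial counterpart, 39 rose and 1 fell, with a median of 0.97, and of 29 tested mitochondria-specific members 25 rose, with a median of 1.16. 4 members were not put in either class. The relatives of bacterial S18 were divided, with Mrps18a classed as mitochondria-specific, Mrps18c as a bacterial counterpart and Mrps18b as neither. Transcripts of the members were short, with a median of 1324 bases against 2960 over all genes tested. Across the 76 members, which share libraries and depth, the change had a Pearson r of -0.15 and a Spearman rho of -0.20 with log2 transcript length, against -0.32 and -0.40 over 11731 genes. With the dependence on length and GC content removed, 57 members rose and 1 fell, against 31.5 and 25.9% of all genes, and the median change was 0.75.

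The other genes of mitochondrial translation were described by lists. Of 5 further subunits with other names, Chchd1 and Aurkaip1, both of the small subunit, rose, by 1.36 ± 0.21 and 1.15 ± 0.18. Dap3, Ptcd3 and Gadd45gip1 had changes of 0.28 ± 0.16, -0.08 ± 0.22 and 0.42 ± 0.20 and did not pass. Of 27 genes of ribosome assembly, 14 rose and 2 fell, against 32.3 and 28.7% of all genes, with a median of 0.53. Rbfa, which matures the small subunit, rose by 1.56 ± 0.19 and the pseudouridine synthase gene Rpusd3 by 1.30 ± 0.19, while Mettl17, an assembly factor of the small subunit, fell by 0.58 and the helicase gene Dhx30 by 0.55 on the log2 scale.

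Among 15 translation factors, 7 rose and none fell, against 32.3 and 28.7% of all genes, with a median of 0.39. Tufm, the elongation factor that brings aminoacyl-tRNA, was at 151 to 288 normalized reads in GF and 433 to 985 in CV libraries and rose by 1.71 ± 0.21, and the recycling factor gene Mrrf rose by 1.32 ± 0.18. The 16 mitochondrial aminoacyl-tRNA synthetases were split, with 5 higher and 4 lower and a median of 0.14. These counts were near the shares of all genes, 32.3 and 28.7%. Yars2 (tyrosine) and Fars2 (phenylalanine) rose by 1.44 ± 0.22 and 1.35 ± 0.23, and Hars2 (histidine) and Wars2 (tryptophan) fell by 0.71 and 0.92 on the log2 scale. Lars2, one of the abundant loci, was not in this list.

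Regulators of mitochondrial gene expression and copy number were listed as well. Of 17 tested, 3 rose and 5 fell, against 32.3 and 28.7% of all genes, with a median of -0.22. Tfam, which packages and transcribes mitochondrial DNA, rose by 0.96 ± 0.20 and Tefm, an elongation factor, by 0.85 ± 0.20. Ppargc1a, a coactivator of mitochondrial biogenesis genes, was at 234 to 565 normalized reads in GF and 60.4 to 104 in CV libraries, without overlap, and its change was -2.36 ± 0.20 (limma adjusted p = 4.86e-07). Its relative Pprc1 changed by -1.17 ± 0.18. The mitochondrial genome holds 13 messages, which this ribosome translates. 7 were tested, and all 7 were lower in CV livers, against 28.7% of all genes, with a median of -1.90. They were also lower under each of the 3 other scalings. The other 6 were listed at or near 0 in every library. Of 79 tested genes for proteins of the cytosolic ribosome, 28 rose and none fell, with a median of 0.37 against 0.07 over all genes. The count that rose was near the share of all genes, 32.3%, while 28.7% of all genes fell. Scaled to the reads outside the abundant loci, the counts of genes that rose and fell were 12 and 10 for the cytosolic ribosome, 9 and 3 for assembly, 5 and 4 for translation factors, 3 and 5 for the synthetases and 1 and 10 for the regulators, so that the median turned negative for the cytosolic ribosome, the factors and the synthetases. The medians that turned negative were -0.10, -0.07 and -0.32, against -0.41 over all genes, of which 17.5% rose and 42.1% fell. Scaled to all reads, the counts were 64 and 0, 19 and 0, 10 and 0, 10 and 0, and 5 and 2 in the same order. The median of the regulators then turned positive, at 0.34, against 0.63 over all genes, of which 50.6% rose and 13.3% fell.

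**Figure D5:**
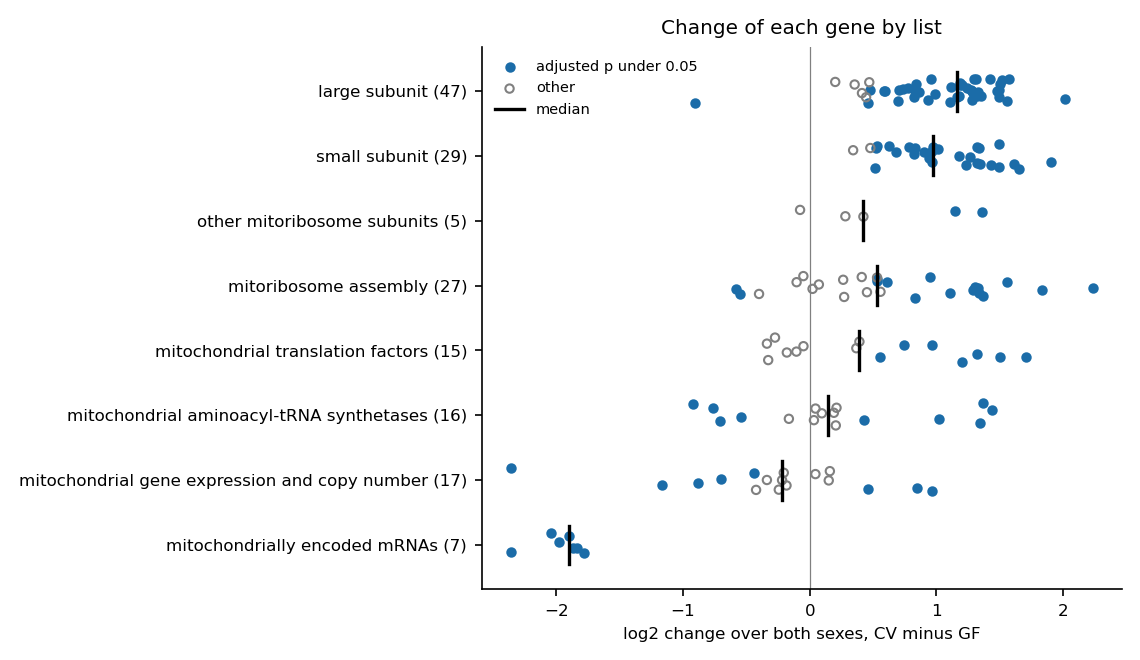
log2 change over both sexes (x axis) of each tested gene in 8 lists, with the number of genes in brackets; blue points passed the adjusted p of 0.05, open points did not, and black lines are medians. Both subunits lie to the right of 0 except Mrpl18, and the 7 messages of the mitochondrial genome lie to the left.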

How the data were processed

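The authors' processing notes in the labels name HTSeq 0.6.1p1, DESeq2 and build GRCm38. Per the labels, libraries were made from liver RNA with a stranded mRNA kit. The aligner and the strand setting are not given in the sources used here. The paper supplied with the series describes cerebral cortex of another mouse line, and no method was taken from it.

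The deposited unit is a normalized signal per gene, in which the authors divided the read counts of a library by 1 size factor. Dividing by the smallest step of each library gave whole reads for 100% of the values (tolerance 0.01 reads), and the inverse of that step was the median-of-ratios size factor over 12512 genes, so reads could be recovered. Positions, exon overlaps and transcript lengths are from GENCODE mouse release 21 on GRCm38.

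The planned count test was replaced by its limma alternative, since the files hold normalized values: limma 3.58.1 on log2(value + 1), genes with a mean value of at least 10 (11782), 1 mean per group, a variance trend, and Benjamini-Hochberg adjustment over all of these genes. Changes of low genes are understated on this scale. The contrasts were the CV minus GF change averaged over the sexes and within either sex, the difference of the male and female changes, and male minus female. edgeR 4.0.16 and DESeq2 1.42.0 on the recovered reads were among 26 alternatives, and 3 more were added after the data had been seen. The scripts were tested on simulated data. Promoter motifs, and the omission of windows over 1000 bases from the gene start, were chosen after the data had been seen. The NRF1 letters were shortened by 1 base after a longer form had been searched, which matched fewer windows and left the median change of members with a match further below that of the others, and a heat shock element, searched too, matched no window of a member and is not used.

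The members and lists were chosen with earlier results of these data known. Members were named for the 4 smallest adjusted p-values per subunit and direction, for the 2 highest and 2 lowest levels per kb per subunit, for the 2 smallest p-values of the difference between sexes in the change and of the sex difference, as the Mrps18 relatives, and as Mrps30, Mrpl12, Mrps36 and Mrpl55. The other members are named after their values were seen. Groups came from the sample titles. Same-numbered libraries of GF and CV had correlations of -0.23 to 0.02 and those of males and females 0.06 to 0.40, not all over 0.1, and the labels state no shared litter or batch, so the numbers were not treated as pairs. Read counts limit the precision of the low members. The p-values rest on a spread per gene that the 4 groups of 3 mice share, drawn toward the trend over all genes. A standard error within a sex is thus not the spread of that sex alone.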

Additional observations from a re-analysis of the deposited data

How the results depend on the processing

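The member counts over both sexes, 69 called of 76, stayed within 1.5 times under the scalings (46 outside the abundant loci to 75 with all reads), pseudocounts, minimum values, edgeR, DESeq2 and the omission of any library (64 to 72), and dropped to 0 with the mitochondrial ribosomal RNA share as covariate and to 1 with its log2 value, added after the data had been seen. The covariates also gave 0 and 1 in males and 0 and 0 in females. In males, 31 were called in the main fit. Scaled to all reads 56 were called, and scaled to reads outside the abundant loci 13. With the dependence on length and GC content removed, 17 were called. In the same order, 24.03, 7.09 and 12.39% of all genes rose in males, against 14.1% in the main fit. Those that fell were 6.57, 19.23 and 12.83%, against 15.4%. Omission of single libraries gave 6 (without GF male 1) to 49 (without GF male 2) members in males. In females omission gave 58 (without CV female 2, with 25.4% of all genes rising) to 70 (without GF female 2, with 30.8%). The difference between the sexes stayed at 0. For males against females, 1 was called scaled to all reads, 1 by DESeq2 and 0 to 3 with a library left out, the 3 without GF female 2, against 0. Among the 47 members without overlapping exons, 43, 17 and 42 were called over both sexes, in males and in females, fewer because fewer were counted.

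With the replicate number as a block, 67, 24 and 63 members were called over both sexes, in males and in females, 0 for the difference and 6 for males against females. Same-numbered males and females had correlations of 0.06 to 0.40, positive in 6 of 6 pairs and over 0.1 in 4, and each CV library but not each GF library correlated best with its own number in the other sex of its condition. GF and CV had correlations of -0.23 to 0.02. The labels do not say that a number marks a shared litter or batch, and the numbers were not treated as pairs.

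The large minus small difference of 0.19 moved to 0.0056 and -0.13 with the covariates and to -0.069 without the length and GC dependence, and was 0.11 with edgeR and DESeq2. Omission of a library gave 0.062 (without CV male 1) to 0.17.

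The following directions changed. Mrpl18 was at 0.021 with the covariate. Scaled to reads outside the abundant loci, Mrpl19 was at -0.11, Mrpl52 at -0.27, Mrpl14 at -0.058, Dap3 at -0.19 and Gadd45gip1 at -0.042. Without the length and GC dependence, Mrpl52 was at -0.038 and Mrpl14 at -0.15. With the covariates, Dap3 was at -0.16 and -0.10 and Rpusd3 at -0.11 (share). Scaled to all reads, Ptcd3 was at 0.48, Dhx30 at 0.0062 and Tcp1 at 0.22. Ptcd3 was at 0.012 with TMM factors and at -0.28 to 0.026 with a library left out. The cause of these changes was not tested. Of 592 values of named members under these settings, 525 kept direction and side of the threshold. Low depth limits Mrps23 and 4 other members with under 10 reads in a library.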
